A study of Oryctolagus cuniculus with 9 samples.

Results

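The bone morphogenetic protein (BMP), growth differentiation factor (GDF) and activin genes of rabbit (Oryctolagus cuniculus) vocal fold were taken by symbol. Its symbols are BMP, GDF or FSTL with a number, those that begin with BMPR, INHB, ACVR or CHRD, and single genes such as BMPER, INHA, GREM1, NOG and FST. The rule found 43 of 20525 genes in the table, and 39 of the 43 were among the 17344 genes with enough counts to be tested. BMP10, GDF2, INHBC and INHBE were not tested. Polyadenylated RNA was sequenced in 9 libraries of vocal fold tissue: 3 of uninjured, normal folds, 3 of folds that were injured and not treated, and 3 of folds that were injured and received the SOT hydrogel. The injured folds were taken 1 week after injury, and the study title describes the hydrogel as antioxidant and adhesive. The sources used here do not state strain, age, sex, the way of injury or what the letters SOT stand for. The labels do not say that the libraries are separate animals, so p-values measure the spread between these libraries, which may be technical in part.

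Ligands of this branch of the transforming growth factor superfamily are secreted dimers that bind a pair of type I and a pair of type II serine-threonine kinase receptors. Most BMPs and some GDFs signal through the receptor-regulated SMAD proteins SMAD1, SMAD5 and SMAD9. Activins signal through SMAD2 and SMAD3, and both kinds of complex need SMAD4. Activin A is a dimer of the subunit encoded by INHBA, activin B of the subunit encoded by INHBB, and inhibins pair either of them with the alpha subunit of INHA. Outside the cell, noggin and chordin hold BMPs away from their receptors, and follistatin (FST) does so for activins above all. The pathway takes part in the formation of cartilage and bone, in vessel development and in the repair of skin and other tissue.

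The cell type label names histiocytes, which are tissue macrophages, whereas the tissue label names the vocal fold. In normal folds 13 of the 16 macrophage markers that were in the table summed to 456 to 613 CPM (counts scaled to library size), against 13495 to 17414 CPM for 11 fibroblast and 19384 to 25341 CPM for 9 skeletal muscle markers, so the libraries are described as whole tissue. In such bulk samples, fewer cells of a type and less RNA per cell cannot be told apart. Total counts were between 44755718 and 50338111 per library. The SOT libraries were the least alike, with correlations of log2 CPM between 0.946 and 0.947, against 0.956 to 0.965 among normal and 0.958 to 0.976 among untreated libraries. The median coefficient of variation of the tested members was 32.3% in SOT, 17.7% in untreated and 24.2% in normal folds, and over all tested genes it was 21.4%, 12.2% and 16.9%.

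The first question was how the family differs between untreated and normal folds 1 week after injury. Both activin beta subunit genes rose, with INHBA 7.21-fold and INHBB 7.28-fold higher, while FST, whose product neutralises activin, fell to a level 3.74-fold lower. No tested BMP or GDF ligand rose, and 3 of 7 BMP and 3 of 7 GDF ligands fell, by most in GDF10 (42.6-fold lower). Among type I receptors ACVRL1 was 3.16-fold higher and BMPR1A 1.51-fold lower. In all, 7 of 39 tested members rose and 12 fell (edgeR's quasi-likelihood test, Benjamini-Hochberg adjusted p under 0.05 over all genes tested). That is 19 called members, or 48.7%, where 32.8% of all tested genes were called. By direction these are 17.9% and 30.8% of the tested members, where 17.7% of all tested genes rose and 15.1% fell. The median log2 fold change was -0.45 over the tested members and -0.02 over all tested genes. Leaving out any single library kept 10 of the 19 calls: ACVRL1, BMP1, BMP2K, BMP5, BMPR1A, CHRDL2, FST, GDF10, INHBA and INHBB. With normal replicate 1 left out 7 fell, and with untreated replicate 2 or 3 left out 5 fell. Groups did not overlap in 25 of the tested members (64.1%), 9 higher and 16 lower, where all tested genes gave 55.1%, with 28.0% higher and 27.1% lower.

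**Figure D1:**
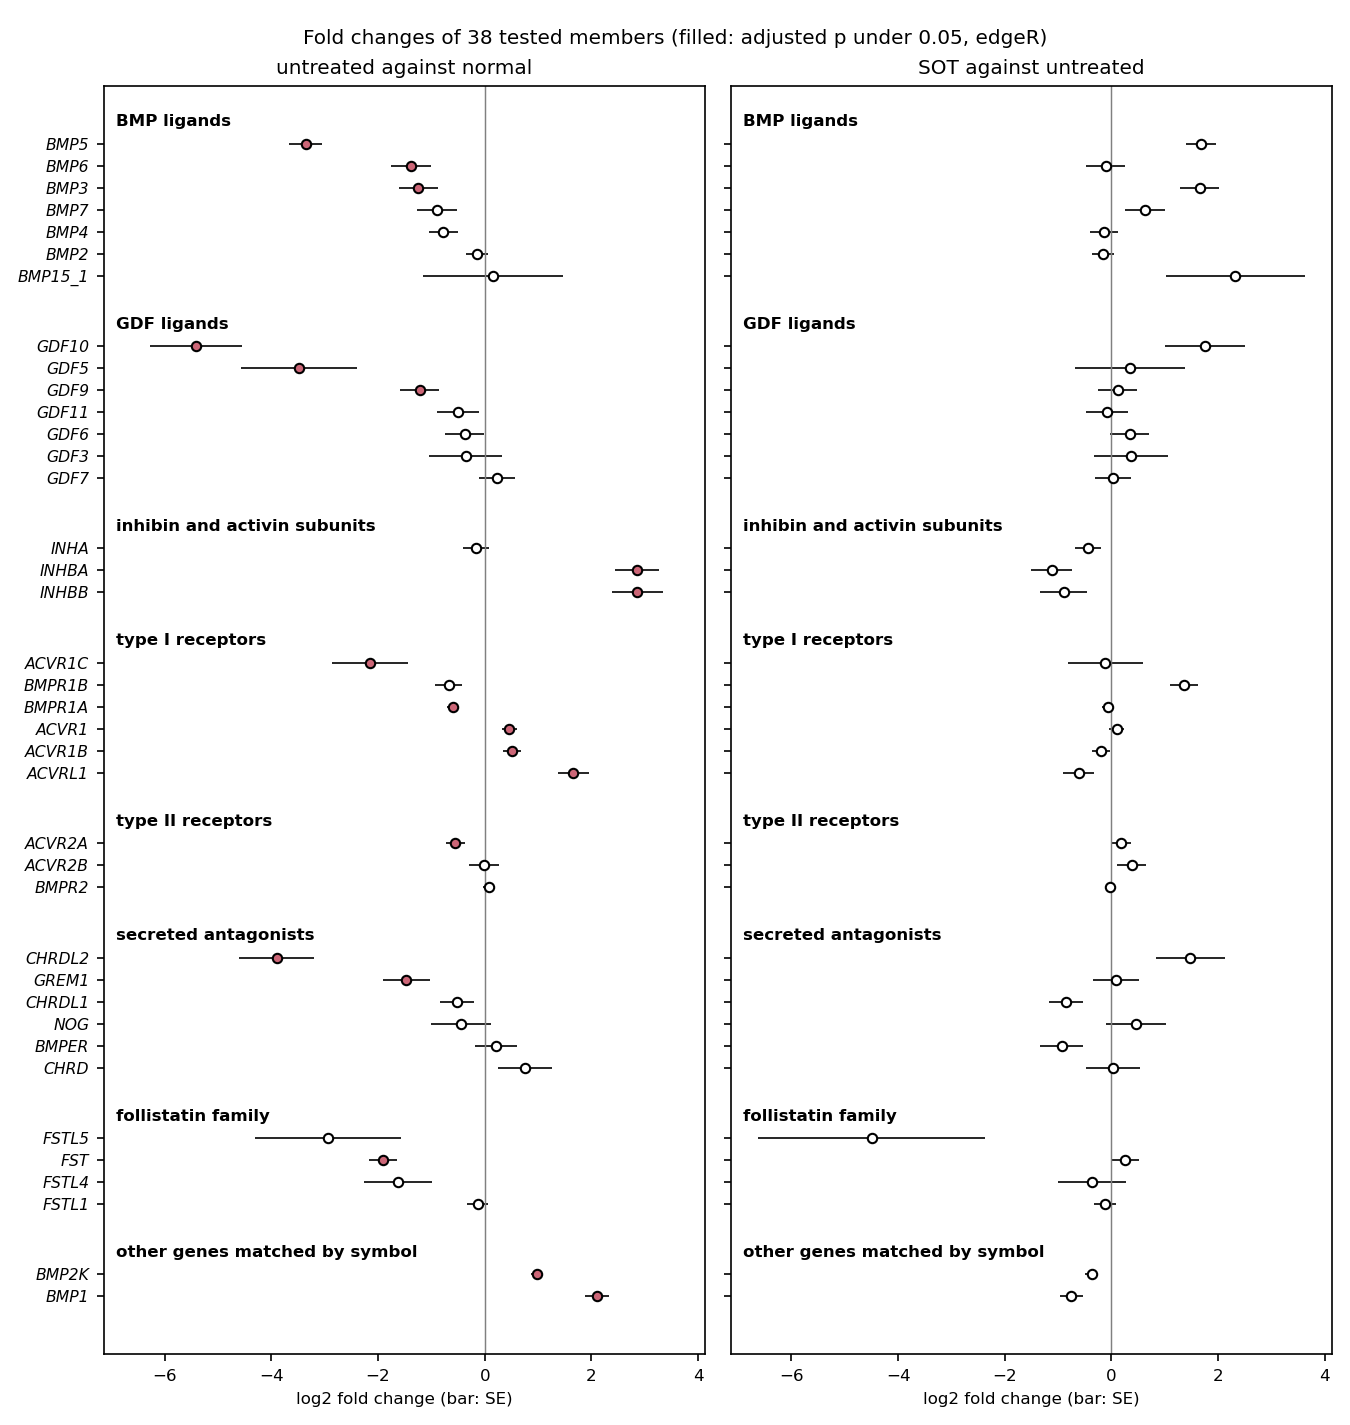
Log2 fold changes of 38 of the tested members, ordered by role, for untreated against normal folds (left) and SOT against untreated folds (right). Points are edgeR estimates, bars are 1 SE, and filled points passed an adjusted p of 0.05, which 19 members did on the left and 0 on the right. The FSTL5 value on the right rests on SOT libraries that were all at 0.

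Both activin beta subunit genes were scarce in normal folds and rose. INHBA, on chromosome 10 at 24690193 to 24702892 of the build OryCun2.0, had 3.48, 5.10 and 3.38 CPM in normal, 34.8, 23.5 and 28.1 CPM in untreated and 11.8, 21.2 and 6.76 CPM in SOT replicates 1, 2 and 3. All untreated libraries were above all normal ones (adjusted p = 0.00217 for a log2 fold change of 2.85, SE 0.41). INHBB, on chromosome 7 at 62748332 to 62753536, had 2.74, 3.28 and 1.46 CPM in normal, 13.7, 22.4 and 18.4 CPM in untreated and 12.8, 12.2 and 4.29 CPM in SOT folds. The untreated libraries were again all above the normal ones (adjusted p = 0.00342 for a log2 fold change of 2.86, SE 0.47). Per gene length, INHBA and INHBB together had 12.7, 12.5 and 12.7 FPKM (fragments scaled to gene length and library size, as deposited) in the untreated libraries and 1.78 ± 0.498 FPKM in normal ones (SD, n = 3). The alpha subunit gene INHA, whose product turns activin subunits into inhibins, had 3.14 ± 0.793 CPM in normal and 2.80 ± 0.171 CPM in untreated folds and did not pass (adjusted p = 0.643). INHBC and INHBE, beta subunits best known from liver, had at most 24 and 16 counts in any library. Neutrophil markers summed to 601 to 2053 CPM in normal and 5510.4 to 7362 CPM in untreated folds, with 8 of 9 higher, and macrophage markers to 456 to 613 and 2023 to 2247 CPM, with 10 of 13 higher; their part in the rise of INHBA and INHBB was not tested.

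Follistatin went the other way. FST, on chromosome 11 at 69513010 to 69516336, had 35.3, 50.4 and 25.3 CPM in normal, 11.6, 9.29 and 8.82 CPM in untreated and 13.8, 9.91 and 11.9 CPM in SOT folds. Every injured library, treated or not, was below every normal one (adjusted p = 0.00179 for a log2 fold change of -1.90, SE 0.26 in untreated against normal). The ratio of FST to INHBA in FPKM was 37.8, 36.9 and 27.8 in the normal libraries, 1.23, 1.47 and 1.17 in the untreated and 4.35, 1.74 and 6.52 in the SOT libraries. The 3 groups did not overlap in this ratio, which was chosen after its values were seen. A two-sided exact permutation test gave p = 0.1 for each of the 3 comparisons, the smallest that 3 against 3 libraries allow. In untreated and in SOT against normal folds, FST and INHBA each differed without overlap and in opposite directions. There the test of their ratio could not come out otherwise and adds no evidence. The follistatin-like genes did not pass: FSTL1, the most abundant member per gene length, had 1622 ± 346 CPM in normal and 1477 ± 139 CPM in untreated folds (adjusted p = 0.643). FSTL4 had 1.63 ± 0.953 CPM in normal and 0.526 ± 0.166 CPM in untreated folds (adjusted p = 0.0833, and 0.0364 by DESeq2). FSTL5 had 0.323, 0.528 and 0.480 CPM in the normal libraries, was at 0 counts in 2 untreated libraries and in all SOT libraries, and did not pass (adjusted p = 0.148, and 0.0143 by limma on FPKM).

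**Figure D2:**
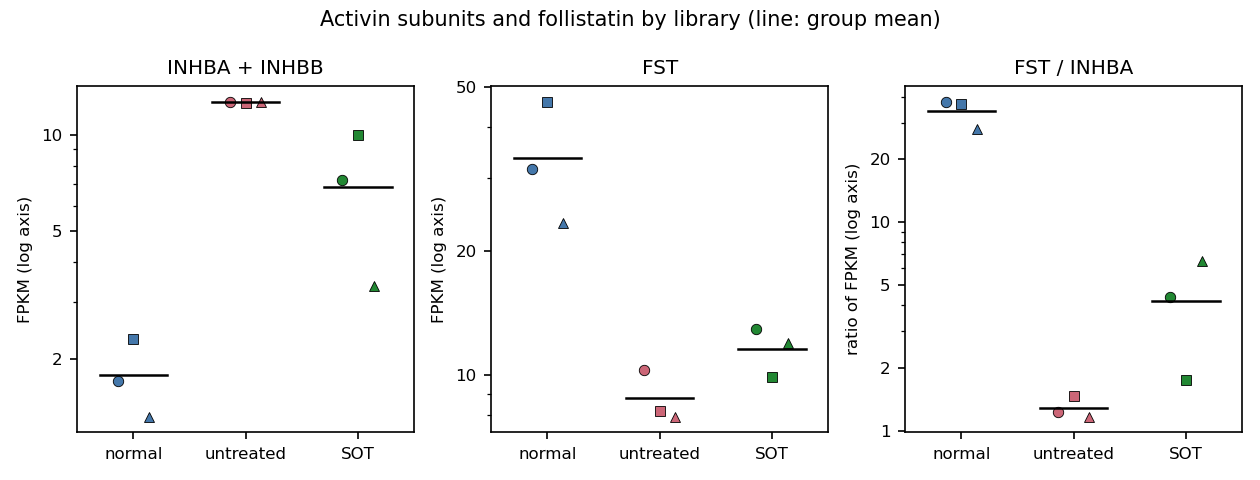
Summed INHBA and INHBB level, FST level (both FPKM) and the FST to INHBA ratio in each library on log axes; circles, squares and triangles are replicates 1, 2 and 3 and lines are group means. The ratio averages 34.2 in normal, 1.29 in untreated and 4.20 in SOT folds, with no overlap between groups.

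BMP ligands fell or did not pass. BMP5, a ligand of skeletal and cartilage development on chromosome 12 at 45669664 to 45794634, had 55.5, 111 and 71.8 CPM in normal and 8.22, 8.19 and 6.81 CPM in untreated folds. The untreated libraries lay within a narrow band, all below the normal ones (adjusted p = 0.000463 for a log2 fold change of -3.36, SE 0.31). BMP6, on chromosome 12 at 1470751 to 1647032, had 20.9, 20.4 and 30.6 CPM in normal and 12.8, 5.20 and 9.44 CPM in untreated folds (adjusted p = 0.0231 for a log2 fold change of -1.39, SE 0.37). The BMP6 call was lost without normal replicate 3 or untreated replicates 2 or 3 (highest adjusted p = 0.0739, without untreated replicate 3). BMP3, an atypical ligand that opposes other BMPs, on chromosome 15 at 69212394 to 69238987, had 23.4, 16.2 and 21.1 CPM in normal and 10.6, 6.62 and 8.33 CPM in untreated folds (adjusted p = 0.0311 for a log2 fold change of -1.25, SE 0.36). The BMP3 call was lost without normal replicates 1 or 3 or untreated replicates 2 or 3 (highest adjusted p = 0.106, without untreated replicate 2). BMP4, a ligand of early patterning and of bone, had 27.5, 22.3 and 25.5 CPM in normal and 19.3, 12.4 and 12.4 CPM in untreated folds and missed the threshold (adjusted p = 0.0551), although the groups did not overlap. DESeq2 gave BMP4 an adjusted p of 0.0176 and limma on FPKM 0.0340, and edgeR with relative log expression factors 0.0468. BMP2 had 12.9 ± 1.32 CPM in normal and 11.7 ± 1.31 CPM in untreated folds (adjusted p = 0.632), and BMP7 had 6.25 ± 0.593 CPM in normal and 3.35 ± 1.33 CPM in untreated folds (adjusted p = 0.0990). The table's BMP7 entry spans only 538 bases of a scaffold, so its level describes a fragment of the gene. BMP15_1, by its symbol a copy of the oocyte factor BMP15, had 0.183 ± 0.245 CPM in normal and 0.204 ± 0.122 CPM in untreated folds, and BMP10 had at most 4 counts in any library.

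GDF10 had the largest fold change of the tested members in untreated against normal folds. It is a BMP3-like ligand, read here on an unplaced scaffold at 182684 to 195357, with 87.5, 178 and 79.4 CPM in normal and 4.27, 1.72 and 2.09 CPM in untreated folds (adjusted p = 0.00306 for a log2 fold change of -5.41, SE 0.86). The lowest normal library stood far above the highest untreated one. GDF5, a joint and cartilage ligand on chromosome 4 at 4355207 to 4358958, had 5.58, 8.07 and 2.95 CPM in normal and 0.586, 0.594 and 0.293 CPM in untreated folds (adjusted p = 0.0393 for a log2 fold change of -3.49, SE 1.09). The GDF5 call was lost without normal replicates 1 or 2 or untreated replicates 1, 2 or 3 (highest adjusted p = 0.133, without untreated replicate 3). GDF9, best known from the oocyte, had 2.95, 5.56 and 3.25 CPM in normal and 1.65, 1.34 and 2.05 CPM in untreated folds (adjusted p = 0.0335 for a log2 fold change of -1.22, SE 0.36). The GDF9 call was lost without normal replicate 2 or untreated replicates 1, 2 or 3 (highest adjusted p = 0.113, without untreated replicate 2). The other 4 tested GDF genes did not pass: GDF11, a close relative of myostatin, had 27.6 ± 13.1 CPM in normal and 19.5 ± 1.46 CPM in untreated folds (adjusted p = 0.351), and GDF3, GDF6 and GDF7 had adjusted p between 0.468 and 0.725. GDF2, the circulating ligand of ACVRL1 also called BMP9, had 6 counts in normal replicate 2 and 0 in every other library.

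Cartilage markers moved in the same direction as GDF10, GDF5 and the antagonist gene CHRDL2, with 10 of 11 tested markers lower in untreated than in normal folds. Their summed level was 3253, 5277 and 2570.3 CPM in the normal, 164, 129 and 90.1 CPM in the untreated and 199.7, 143 and 649 CPM in the SOT libraries, and none of the 11 was at 0 in a whole group. Within the SOT group, replicate 3 had the highest cartilage sum and the highest GDF10 level (19.4 CPM, against 5.70 and 2.19 CPM in replicates 1 and 2). CHRDL2 had 10.5, 2.28 and 11.7 CPM in SOT replicates 1, 2 and 3. GDF5 had 1.02, 0 and 0.855 CPM in the same libraries and was highest in replicate 1. Skeletal muscle markers summed to 19384 to 25341 CPM in normal and 768 to 6964 CPM in untreated folds, and nerve and Schwann cell markers to 670.5 to 1227 and 58.6 to 88.6 CPM, with 7 of 9 and 6 of 9 tested markers lower. The part of tissue content in the fall of these members was not tested.

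**Figure D3:**
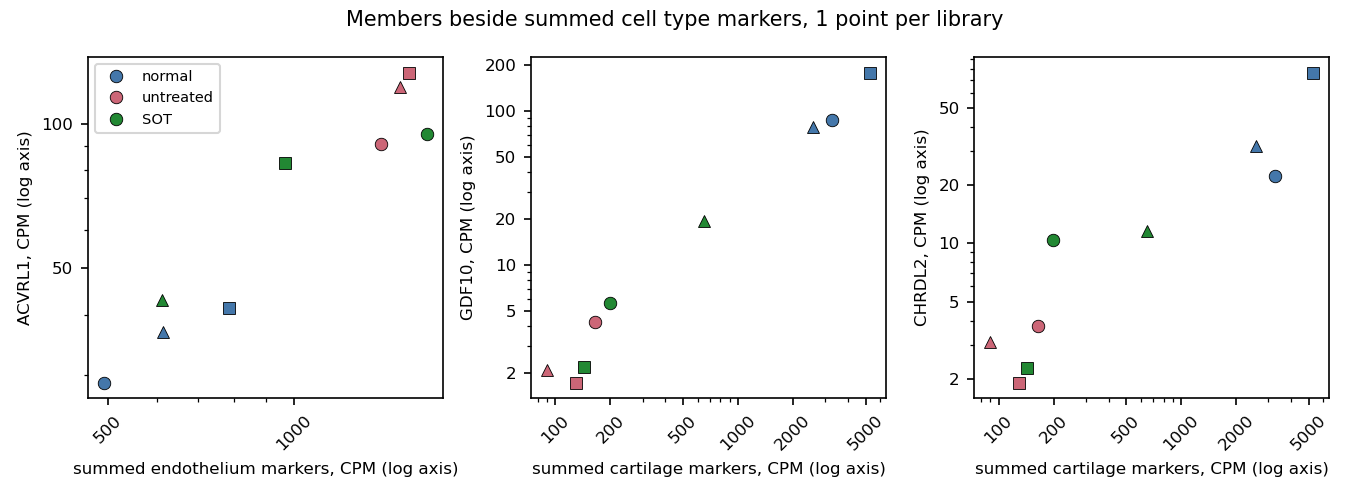
CPM of ACVRL1 against the summed level of 9 endothelial markers, and of GDF10 and CHRDL2 against the summed level of 11 cartilage markers, for each of the 9 libraries on log axes (circles, squares and triangles are replicates 1, 2 and 3). Normal libraries lie between 2570.3 and 5277 CPM of cartilage markers and untreated ones between 90.1 and 164 CPM.

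Receptor genes changed in both directions. ACVRL1 encodes the type I receptor ALK1 of endothelial cells and lies on chromosome 4 at 36071347 to 36085071. It had 28.9, 41.3 and 36.9 CPM in normal, 90.7, 128 and 119 CPM in untreated and 95.4, 82.8 and 42.9 CPM in SOT folds, and rose in untreated folds (adjusted p = 0.00448 for a log2 fold change of 1.66, SE 0.29). The 9 endothelial markers summed to 494, 785 and 614 CPM in normal, 1382, 1533 and 1485 CPM in untreated and 1641, 967 and 612 CPM in SOT folds, and 4 of 9 rose in untreated folds; their part in the ACVRL1 difference was not tested. BMPR1A, the broadly expressed type I receptor ALK3 on chromosome 18 at 8553741 to 8622305, had 114, 105 and 97.8 CPM in normal and 74.5, 66.1 and 68.7 CPM in untreated folds and fell (adjusted p = 0.00594 for a log2 fold change of -0.60, SE 0.11). The ratio of ACVRL1 to BMPR1A in FPKM was 0.644 ± 0.145 in normal and 3.08 ± 0.701 in untreated folds (p = 0.1 by a two-sided exact permutation test, the smallest possible). In normal folds BMPR1A was thus the higher of the pair per gene length, and in untreated folds ACVRL1 was. Both genes differed without overlap and in opposite directions, so the test of their ratio could not come out otherwise and adds no evidence.

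Changes also passed in 4 other receptors, none of which held in all 9 fits without 1 library. ACVR1 (ALK2) had 54.5, 50.2 and 49.5 CPM in normal and 63.8, 76.5 and 71.3 CPM in untreated folds and rose (adjusted p = 0.0371 for a log2 fold change of 0.46, SE 0.14). The ACVR1 call was lost without normal replicates 1, 2 or 3 or untreated replicates 2 or 3 (highest adjusted p = 0.124, without untreated replicate 2). ACVR1B, the activin receptor ALK4, had 18.1, 18.9 and 19.6 CPM in normal and 28.8, 26.6 and 25.0 CPM in untreated folds and rose (adjusted p = 0.0454 for a log2 fold change of 0.51, SE 0.17). The ACVR1B call was lost without normal replicates 1, 2 or 3, untreated replicates 1, 2 or 3 or SOT replicate 3 (highest adjusted p = 0.120, without normal replicate 1). ACVR1C, the receptor ALK7, was scarce, with 2.63, 0.814 and 1.44 CPM in normal and 0.628, 0.297 and 0.168 CPM in untreated folds, and fell (adjusted p = 0.0480 for a log2 fold change of -2.15, SE 0.71). The ACVR1C call was lost without normal replicates 1 or 3, untreated replicates 2 or 3 or SOT replicates 1 or 3 (highest adjusted p = 0.158, without normal replicate 1). ACVR2A, a type II receptor shared by activins and BMPs, had 42.1, 31.6 and 43.6 CPM in normal and 30.8, 23.6 and 25.6 CPM in untreated folds and fell (adjusted p = 0.0438 for a log2 fold change of -0.55, SE 0.18). The ACVR2A call was lost without normal replicates 1 or 3 or untreated replicates 2 or 3 (highest adjusted p = 0.142, without untreated replicate 2). With no filter on low counts, ACVR1B, ACVR1C and ACVR2A had adjusted p of 0.0533, 0.0542 and 0.0504. Limma on FPKM gave ACVR1 0.0574 and ACVR2A 0.0564 as adjusted p. BMPR1B had 19.8, 23.4 and 19.9 CPM in normal and 16.6, 10.4 and 12.5 CPM in untreated folds and did not pass (adjusted p = 0.0770, and 0.0426 by DESeq2). The type II receptor BMPR2 had 45.8 ± 3.54 CPM in normal and 48.4 ± 3.45 CPM in untreated folds (adjusted p = 0.617 for a log2 fold change of 0.08), and ACVR2B had 3.11 ± 0.609 CPM in normal and 3.08 ± 0.423 CPM in untreated folds.

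Of the secreted BMP antagonists, CHRDL2 and GREM1 fell. CHRDL2, a chordin-like protein of cartilage on chromosome 1 at 141914565 to 141937676, had 22.4, 76.4 and 32.0 CPM in normal and 3.74, 1.91 and 3.10 CPM in untreated folds (adjusted p = 0.00500 for a log2 fold change of -3.90, SE 0.71). GREM1, on chromosome 17 at 37878087 to 37889981, binds BMP2, BMP4 and BMP7 and had 129.7, 209.6 and 87.8 CPM in normal and 41.2, 59.5 and 53.8 CPM in untreated folds, with no overlap (adjusted p = 0.0324 for a log2 fold change of -1.47, SE 0.43). The GREM1 call was lost without normal replicates 1 or 2 or untreated replicates 1, 2 or 3 (highest adjusted p = 0.104, without normal replicate 2). CHRD, the gene of chordin, had 20.2, 19.4 and 15.6 CPM in normal and 34.6, 27.3 and 30.6 CPM in untreated folds and did not pass with the 9 libraries (adjusted p = 0.287). It passed when the fit held the 6 normal and untreated libraries alone (adjusted p = 0.0104), where the spread of the SOT libraries does not enter. NOG (noggin), CHRDL1 and BMPER had adjusted p of 0.575, 0.244 and 0.722.

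**Figure D4:**
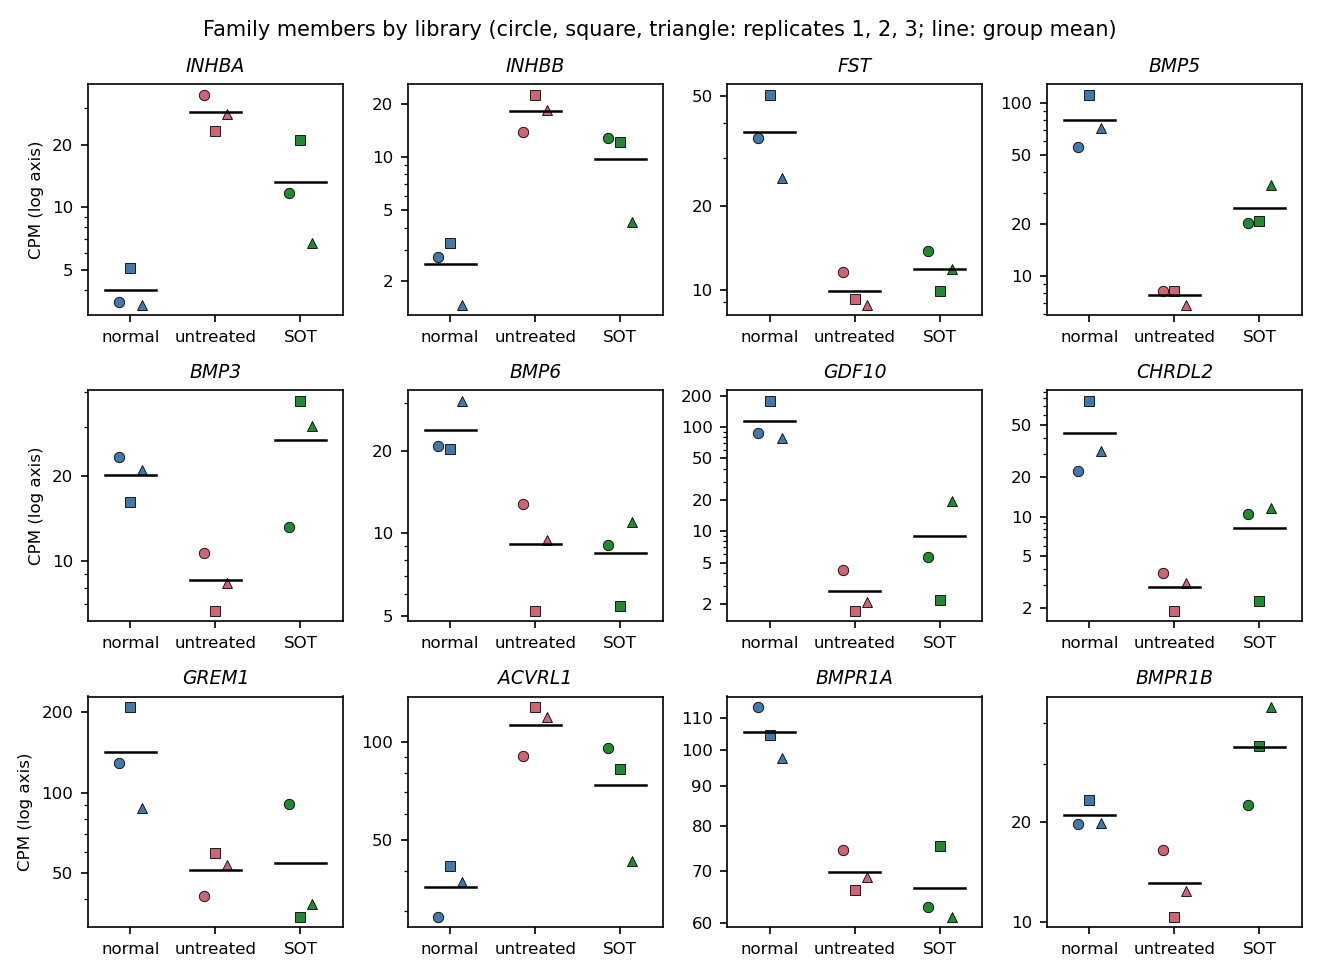
CPM of 12 members in each library on log axes; circles, squares and triangles are replicates 1, 2 and 3 and lines are group means. INHBA and INHBB are higher and FST, BMP5, GDF10 and CHRDL2 lower in the untreated than in the normal libraries without overlap, and BMP3, BMP5 and BMPR1B are higher in each SOT library than in each untreated one.

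The rule also takes 2 genes that share the name but are no ligand, and both rose. BMP1, on an unplaced scaffold at 471311 to 509322, encodes a metalloproteinase that trims procollagen and releases BMPs from chordin. It had 94.8, 104 and 96.4 CPM in normal, 376, 458 and 438 CPM in untreated and 242, 337 and 177 CPM in SOT folds (adjusted p = 0.000719 for a log2 fold change of 2.11, SE 0.22 in untreated against normal). PCOLCE, the enhancer of that proteinase, rose as well, from 77.0, 123 and 92.7 CPM to 376, 352 and 369 CPM (adjusted p = 0.0105 for a log2 fold change of 1.91, SE 0.42). BMP2K, a kinase named for its induction by BMP2, had 68.1, 76.0 and 81.2 CPM in normal and 134, 162 and 147 CPM in untreated folds (adjusted p = 0.00107 for a log2 fold change of 0.98, SE 0.12). Fibroblast markers summed to 13495 to 17414 CPM in normal and 44778 to 47195 CPM in untreated folds, with 4 of 11 higher and 3 lower, and macrophage markers to 456 to 613 and 2023 to 2247 CPM, with 10 of 13 higher; their part in these rises was not tested.

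Other genes of the pathway came from 5 lists of intracellular, extracellular and target genes. They hold 72 genes outside the rule, of which 63 were in the table and 57 were tested. SMAD6, SMAD7 and SMAD9 are both in the SMAD list and in the target list, and BAMBI is in the target list and the modulator list, so that the counts per list add up to more than the total. In untreated folds 11 (19.3%) rose and 17 (29.8%) fell, with a median log2 fold change of -0.38, where 17.7% of all tested genes rose, 15.1% fell and the median was -0.02. The share of companion genes that rose is near that of all genes. With untreated replicate 2 left out 5 rose and 11 fell, with untreated replicate 3 left out 6 rose and 8 fell, and with normal replicate 1 left out 7 rose. FURIN, a convertase that cleaves ligand precursors, had 59.0, 70.4 and 61.5 CPM in normal and 291, 407 and 367 CPM in untreated folds (adjusted p = 0.000748 for a log2 fold change of 2.48, SE 0.26). The related convertase gene PCSK6 fell, from 79.4, 109 and 103 to 48.5, 61.1 and 56.3 CPM (adjusted p = 0.00594 for a log2 fold change of -0.81, SE 0.15). Of 10 tested co-receptors and convertases FURIN alone rose and 6 fell, 3 without untreated replicate 2 and 4 without untreated replicate 3; 2 rose without normal replicate 3, SOT replicate 1 or SOT replicate 3. TGFBR3, the co-receptor betaglycan that binds inhibin, fell from 205, 249 and 216 to 66.2, 32.0 and 43.8 CPM (adjusted p = 0.00107 for a log2 fold change of -2.24, SE 0.27). RGMB, a BMP co-receptor, fell by 0.93 on the log2 scale (adjusted p = 0.00386).

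Among 13 tested SMAD proteins and regulators 5 rose and 3 fell. These are 38.5% and 23.1%, where 17.7% of all tested genes rose and 15.1% fell. SMAD1, which carries BMP signals, had 22.5, 27.9 and 25.8 CPM in normal, 46.6, 48.5 and 50.4 CPM in untreated and 50.9, 53.3 and 46.5 CPM in SOT folds, with both injured groups above every normal library (adjusted p = 0.00102 for a log2 fold change of 0.93, SE 0.11 in untreated against normal). SKIL, a repressor of SMAD complexes, rose from 18.4, 22.1 and 22.4 to 36.1, 44.3 and 40.6 CPM (adjusted p = 0.00159 for a log2 fold change of 0.94, SE 0.12), whereas TOB1, an antiproliferative SMAD partner, fell from 73.9, 109 and 92.3 to 55.7, 47.3 and 47.5 CPM (adjusted p = 0.00534 for a log2 fold change of -0.87, SE 0.16). PPM1A, a SMAD phosphatase, fell by 0.38 on the log2 scale (adjusted p = 0.0129). The PPM1A call was lost without untreated replicate 3 (adjusted p = 0.0636). Leaving out normal replicate 1 or untreated replicate 2 gave 2 that rose, leaving out normal replicate 2 gave 3, and leaving out untreated replicate 3 gave 3 that rose and 1 that fell.

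Of 17 tested targets of BMP-SMAD signalling 3 rose and 4 fell. These shares, 17.6% and 23.5%, stand beside 17.7% and 15.1% of all tested genes. MSX2 rose from 4.31, 3.32 and 2.95 to 6.82, 9.53 and 8.23 CPM (adjusted p = 0.00549 for a log2 fold change of 1.22, SE 0.23), and SMAD7, an inhibitory SMAD that TGF-beta also induces, from 13.6, 15.7 and 15.7 to 22.4, 33.5 and 26.3 CPM (adjusted p = 0.0155 for a log2 fold change of 0.87, SE 0.21). The SMAD7 call was lost without normal replicate 1 or untreated replicate 2 (highest adjusted p = 0.0580, without untreated replicate 2). RUNX2, a transcription factor of bone, rose by 0.67 on the log2 scale (adjusted p = 0.0194). The RUNX2 call was lost without normal replicate 2 or untreated replicates 2 or 3 (highest adjusted p = 0.0649, without untreated replicate 2). HEY1, a target shared with Notch signalling, fell from 19.1, 24.2 and 19.5 to 11.7, 13.7 and 13.3 CPM (adjusted p = 0.0104 for a log2 fold change of -0.70, SE 0.15). The inhibitor of DNA binding genes, the textbook BMP targets, were chosen here after their values were seen: ID1 had 105, 170.3 and 109 CPM in normal and 77.8, 80.2 and 85.5 CPM in untreated folds and narrowly missed the adjusted threshold of 0.05 (unadjusted p = 0.0164). DESeq2, limma on FPKM, edgeR with relative log expression factors and the fit of the 6 libraries compared called ID1 lower. It was not called with no filter, with the replicate block or without any single normal or untreated library. ID4 fell, from 9.94, 19.6 and 12.2 to 5.82, 4.69 and 5.84 CPM (adjusted p = 0.0325), and ID2 and ID3 had adjusted p of 0.684 and 0.401. The ID4 call was lost without normal replicates 2 or 3 or untreated replicates 1, 2 or 3 (highest adjusted p = 0.106, without untreated replicate 2). The number of targets that rose was 1 without untreated replicate 2, and the number that fell was 1 without normal replicate 2 or untreated replicate 3, 2 without normal replicate 3 or untreated replicate 1 or 2, and 8 by DESeq2. HEY1 and ID1 are also active in endothelium, whose markers summed to 494 to 785 CPM in normal and 1382 to 1533 CPM in untreated folds. The part of endothelial content in the HEY1 and ID1 levels was not tested.

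Of 17 tested antagonists, carriers and modulators outside the rule 2 rose and 6 fell. These are 11.8% and 35.3%, where 17.7% of all tested genes rose and 15.1% fell. CRIM1, a transmembrane protein that binds BMPs, fell from 158, 212 and 157 to 83.7, 74.5 and 79.0 CPM (adjusted p = 0.00155 for a log2 fold change of -1.15, SE 0.15). SMOC2, a matricellular protein, fell from 107, 206 and 101 to 42.2, 32.1 and 31.9 CPM (adjusted p = 0.00641 for a log2 fold change of -1.96, SE 0.38). WFIKKN2, which binds myostatin and GDF11, fell from 5.44 ± 1.74 to 1.51 ± 0.779 CPM (adjusted p = 0.0142). The WFIKKN2 call was lost without untreated replicate 3 (adjusted p = 0.0562). The number that fell was 2 without untreated replicate 3, and the number that rose was 1 without normal replicate 1 or 3 or untreated replicate 2 or 3. Among 4 tested other ligands and receptors of the superfamily NODAL rose, from 0 counts in the normal libraries to 0.230, 0.488 and 0.398 CPM, at least 5.56-fold higher against a floor of 3 counts per library (adjusted p = 0.0216). The NODAL call was lost without untreated replicates 2 or 3 (highest adjusted p = 0.0617, without untreated replicate 3). Without normal replicate 2 this list had 2 genes that rose, and without untreated replicate 1 or SOT replicate 2 it had 1 that fell.

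**Figure D5:**
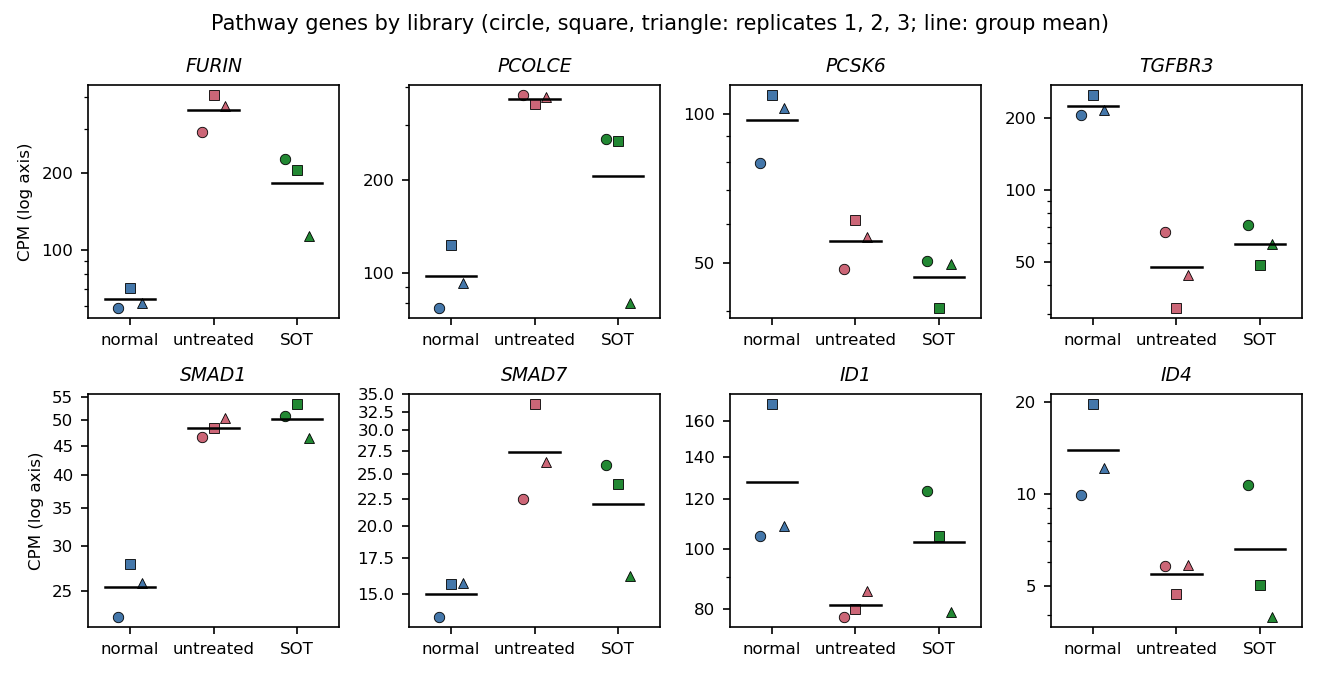
CPM of 8 pathway genes outside the family rule in each library on log axes; circles, squares and triangles are replicates 1, 2 and 3 and lines are group means. FURIN, PCOLCE and SMAD1 are higher and PCSK6 and TGFBR3 lower in the untreated than in the normal libraries without overlap.

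The second question was how the hydrogel group differs from injury alone. No member passed in this comparison by edgeR (0 of 39). At an unadjusted p under 0.05 there were 9 members, where 12.6% of all tested genes had such a p and 0.0115% passed after adjustment. DESeq2 called 3 members higher, BMP3, BMP5 and BMPR1B, among 229 genes that it called higher in all, and limma on FPKM called 0. The same 3 were called higher by edgeR, and CHRD lower, when SOT replicate 1 was left out, which leaves 2 SOT libraries. The median log2 fold change was -0.02 over the tested members and 0.01 over all tested genes. Of the tested members 11 (28.2%) had groups that did not overlap, 3 higher and 8 lower in SOT folds, against 19.8% of all tested genes (7.40% higher and 12.4% lower). These counts are by CPM. With relative log expression factors 10 members did not overlap, and in deposited FPKM 8 did not.

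The 3 members that stood higher in every SOT library than in every untreated one were BMP3, BMP5 and BMPR1B. BMP5 had 8.22, 8.19 and 6.81 CPM in untreated and 20.2, 20.8 and 33.3 CPM in SOT folds (adjusted p = 0.112 for a log2 fold change of 1.68, SE 0.29, with adjusted p = 0.0295 without SOT replicate 1). Its SOT libraries still lay below every normal library. BMP3 had 10.6, 6.62 and 8.33 CPM in untreated and 13.2, 37.2 and 30.4 CPM in SOT folds (adjusted p = 0.167 for a log2 fold change of 1.66, SE 0.37, with adjusted p = 0.0124 without SOT replicate 1). SOT replicates 2 and 3 were above all normal libraries and SOT replicate 1 was below them. BMPR1B, the type I receptor ALK6 that binds GDF5 and BMPs, on chromosome 15 at 54721426 to 55160429, had 16.6, 10.4 and 12.5 CPM in untreated and 22.6, 34.1 and 44.6 CPM in SOT folds (adjusted p = 0.136 for a log2 fold change of 1.36, SE 0.26, with adjusted p = 0.0165 without SOT replicate 1). The ratio of BMPR1B to BMPR1A in FPKM was 0.325, 0.407 and 0.658 in the SOT libraries, above every normal and untreated library, which lay between 0.141 and 0.201. That ratio was chosen after its values were seen (p = 0.1 by a two-sided exact permutation test of SOT against untreated, the smallest possible).

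The 8 members that were lower by CPM in every SOT library than in every untreated one did not pass either. Of these, INHBA, BMP1 and BMP2K overlapped between the groups in deposited FPKM. INHBA had 2.17-fold and INHBB 1.86-fold lower levels in SOT folds (adjusted p = 0.296 and 0.443), with SOT replicate 3 the lowest in both. BMP1 was 1.68-fold lower (adjusted p = 0.238 for a log2 fold change of -0.75, SE 0.22) and BMP2K 1.29-fold lower (adjusted p = 0.262). CHRDL1, an antagonist of BMP4, had 21.1, 15.0 and 16.9 CPM in untreated and 11.7, 10.8 and 6.95 CPM in SOT folds (adjusted p = 0.331 for a log2 fold change of -0.85, SE 0.32). BMPER, a secreted modulator of BMP in vessels, had 34.9, 51.0 and 45.1 CPM in untreated and 29.8, 26.0 and 12.7 CPM in SOT folds (adjusted p = 0.385 for a log2 fold change of -0.94, SE 0.40). INHA, also among the 8, had an adjusted p of 0.508. FST had 11.6, 9.29 and 8.82 CPM in untreated and 13.8, 9.91 and 11.9 CPM in SOT folds (adjusted p = 0.701), and GDF10 had 4.27, 1.72 and 2.09 CPM in untreated and 5.70, 2.19 and 19.4 CPM in SOT folds (adjusted p = 0.389). GDF6, ACVR2B and ACVR2A had adjusted p of 0.733, 0.608 and 0.698, ACVRL1 had 0.422 and FSTL5 0.446. Macrophage markers summed to 2023, 2247 and 2214 CPM in untreated and 1451, 877 and 846 CPM in SOT folds, and neutrophil markers to 5510.4, 7362 and 6468 CPM in untreated and 5187, 1873 and 2012 CPM in SOT folds; their part in these differences was not tested.

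SOT replicate 1 stood apart in the antagonists CHRD, GREM1 and NOG, but not in CHRDL1, CHRDL2 or BMPER. CHRD had 63.2, 16.8 and 14.4 CPM in SOT replicates 1, 2 and 3, against 34.6, 27.3 and 30.6 CPM in the untreated libraries, and without SOT replicate 1 it was called lower (log2 fold change -0.98, adjusted p = 0.0319). With all libraries its log2 fold change was 0.03 (adjusted p = 0.985). GREM1 had 91.1, 34.3 and 38.4 CPM and NOG 7.77, 2.30 and 2.10 CPM in the same libraries, in each case highest in replicate 1. That library also had the highest summed endothelial, neutrophil, macrophage and skeletal muscle markers of the SOT group, 1641, 5187, 1451 and 8827 CPM. Its fibroblast sum was the lowest of that group, 21154 CPM, and its other marker sums lay between those of replicates 2 and 3. No companion gene passed by edgeR (0 of 57). An unadjusted p under 0.05 was found for 9 of the 57, where 12.6% of all tested genes had such a p. DESeq2 called FBN2 and FURIN lower, among 453 genes that it called lower in all, and limma called 0. FURIN had 291, 407 and 367 CPM in untreated and 228, 206 and 113 CPM in SOT folds (adjusted p = 0.211 for a log2 fold change of -0.96, SE 0.25), and FBN2, a microfibril protein that stores BMPs, 206, 189 and 201 CPM in untreated and 68.7, 109.7 and 113 CPM in SOT folds (adjusted p = 0.198 for a log2 fold change of -1.03, SE 0.26). SMAD9 had 19.6, 27.8 and 21.4 CPM in untreated and 29.4, 40.3 and 35.5 CPM in SOT folds (adjusted p = 0.301), and RET, the receptor partner in GDF15 signalling, 6.15, 7.49 and 8.42 CPM in untreated and 6.56, 3.42 and 2.14 CPM in SOT folds (adjusted p = 0.405).

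The third question was what differs from normal in the treated group. This comparison shares its normal libraries with the first one and its SOT libraries with the second, so its calls are no independent evidence. Activin subunits were higher and FST was lower than in normal folds, as in the untreated group: INHBA was 3.32-fold and INHBB 3.91-fold higher, and FST 3.12-fold lower. In all, 6 of 39 tested members rose and 7 fell, or 15.4% and 17.9%, where 16.7% of all tested genes were called, 9.01% rose and 7.67% fell. The median log2 fold change was -0.27 over the tested members and 0.02 over all tested genes. Leaving out any single library kept the calls of BMP1, BMP5, BMPR1A and FST. Leaving out normal replicate 1, 2 or 3 gave 1, 3 or 2 that rose, leaving out SOT replicate 2 gave 3, and a fit of only the 6 libraries compared gave 2. In that fit ACVR1, ACVRL1, INHBA and INHBB had adjusted p of 0.0744, 0.0861, 0.0608 and 0.0630, and CHRDL1 and CHRDL2 of 0.0644 and 0.0861. The number that fell was 4 without normal replicate 1 or 2, 14 by DESeq2, which added ACVR1C, BMP4, FSTL4, FSTL5, GDF5, GDF9 and GREM1, and 11 by limma on FPKM, which added BMP4, FSTL5, GDF5 and GREM1. Groups did not overlap in 19 tested members (48.7%), 6 higher and 13 lower, and in 36.4% of all tested genes (17.8% higher and 18.6% lower).

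INHBA had 11.8, 21.2 and 6.76 CPM in SOT folds, all above the normal range of 3.38 to 5.10 CPM (adjusted p = 0.0229 for a log2 fold change of 1.73, SE 0.39). The INHBA call was lost without normal replicates 1 or 3 (highest adjusted p = 0.0814, without normal replicate 1). INHBB also rose (adjusted p = 0.0244 for a log2 fold change of 1.97, SE 0.46). The INHBB call was lost without normal replicates 1, 2 or 3 or SOT replicates 1 or 2 (highest adjusted p = 0.0725, without normal replicate 1). FST fell (adjusted p = 0.00787 for a log2 fold change of -1.64, SE 0.26). BMP5 fell (adjusted p = 0.00961 for a log2 fold change of -1.68, SE 0.29), and so did BMP6, with 9.06, 5.40 and 11.0 CPM in SOT folds (adjusted p = 0.0310 for a log2 fold change of -1.50, SE 0.37). The BMP6 call was lost without normal replicates 1, 2 or 3, untreated replicate 3 or SOT replicates 1 or 2 (highest adjusted p = 0.0785, without SOT replicate 2). BMP3 had 26.9 ± 12.4 CPM in SOT and 20.2 ± 3.67 CPM in normal folds (adjusted p = 0.462). BMP4 had 16.5, 8.77 and 14.7 CPM in SOT folds and missed the threshold (adjusted p = 0.0501), while DESeq2 gave 0.00809. GDF10 fell (adjusted p = 0.0193 for a log2 fold change of -3.66, SE 0.79). The GDF10 call was lost without normal replicate 2 or SOT replicate 1 (highest adjusted p = 0.0559, without normal replicate 2). GDF5 and GDF9, which had fallen in untreated folds, had adjusted p of 0.0767 and 0.0695 here.

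Among receptors, BMPR1A fell (adjusted p = 0.00953 for a log2 fold change of -0.67, SE 0.11), ACVR1 rose (adjusted p = 0.0321 for a log2 fold change of 0.55, SE 0.14) and ACVRL1 rose (adjusted p = 0.0418 for a log2 fold change of 1.05, SE 0.29). The ACVR1 call was lost without normal replicates 1, 2 or 3, untreated replicate 3 or SOT replicate 2 (highest adjusted p = 0.0910, without normal replicate 2). The ACVRL1 call was lost without normal replicates 1, 2 or 3, untreated replicates 1, 2 or 3 or SOT replicates 1 or 2 (highest adjusted p = 0.130, without normal replicate 1). ACVR2A and ACVR2B, the type II receptors with the smallest p, had adjusted p of 0.185 and 0.396. Of the antagonists, CHRDL1 fell, with 35.2, 25.8 and 15.0 CPM in normal and 11.7, 10.8 and 6.95 CPM in SOT folds (adjusted p = 0.0263 for a log2 fold change of -1.37, SE 0.33). The CHRDL1 call was lost without normal replicates 1 or 2 or SOT replicates 2 or 3 (highest adjusted p = 0.0814, without normal replicate 1). CHRDL2 fell too (adjusted p = 0.0403 for a log2 fold change of -2.42, SE 0.66). The CHRDL2 call was lost without normal replicates 1, 2 or 3, untreated replicates 1, 2 or 3 or SOT replicates 1 or 2 (highest adjusted p = 0.120, without normal replicate 2). FSTL5 had 0 counts in all SOT libraries, at least 7.69-fold lower than in normal folds against a floor of 3 counts per library, and did not pass (adjusted p = 0.0512). GREM1 did not pass (adjusted p = 0.0611), with SOT replicate 1 inside the normal range. BMP1 and BMP2K rose (adjusted p = 0.00843 for a log2 fold change of 1.36, SE 0.22 for BMP1, and adjusted p = 0.0130 for BMP2K). The BMP2K call was lost without normal replicate 1 (adjusted p = 0.0510).

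Of the 57 tested companion genes 5 (8.77%) rose and 9 (15.8%) fell relative to normal folds, with a median log2 fold change of -0.28. Of all tested genes 9.01% rose and 7.67% fell, with a median of 0.02. With only the 6 libraries compared in the fit, 3 rose and 5 fell, and TOB1, RGMB, SMOC2, RUNX2 and SMURF1 had adjusted p of 0.0523, 0.0621, 0.0843, 0.0934 and 0.115. DESeq2 called 10 higher and 14 lower, and limma on FPKM called 8 higher. SMAD1 and SKIL rose (adjusted p = 0.00317 for a log2 fold change of 0.98, SE 0.11 for SMAD1, and adjusted p = 0.00758 for SKIL), and FURIN rose from 63.6 ± 5.98 to 182 ± 61.1 CPM (adjusted p = 0.00942). TGFBR3 fell, with 70.9, 48.5 and 59.0 CPM in SOT folds (adjusted p = 0.00556 for a log2 fold change of -1.91, SE 0.26), as did PCSK6 and CRIM1 (adjusted p = 0.00659 and 0.00970). TOB1, RGMB, SMOC2 and WFIKKN2 also fell, and RUNX2 and SMURF1, a ubiquitin ligase for SMADs, rose (adjusted p = 0.0194, 0.0224, 0.0370, 0.0356, 0.0383 and 0.0490). The TOB1 call was lost without normal replicate 2 or SOT replicate 2 (highest adjusted p = 0.0677, without SOT replicate 2). The RGMB call was lost without normal replicates 1, 2 or 3 or SOT replicate 2 (highest adjusted p = 0.0673, without SOT replicate 2). The SMOC2 call was lost without normal replicates 1 or 2, untreated replicates 1, 2 or 3 or SOT replicates 1 or 2 (highest adjusted p = 0.105, without normal replicate 2). The WFIKKN2, RUNX2 and SMURF1 calls held in only 2, 1 and 2 of the 9 fits without 1 library, with adjusted p up to 0.108, 0.113 and 0.143. None of the 4 tested other ligands and receptors passed; myostatin (MSTN), a muscle-derived ligand with the smallest p among them, had 28.2, 20.4 and 19.5 CPM in normal and 2.90, 0.505 and 3.44 CPM in SOT folds (adjusted p = 0.0515, and 0.00118 by DESeq2). Skeletal muscle markers summed to 1588 to 8827 CPM in SOT folds, and their part in the MSTN difference was not tested. Leaving out normal replicate 1, SOT replicate 2 or any single untreated replicate gave 3 that rose, and leaving out SOT replicate 3 gave 9. Leaving out normal replicate 1 gave 4 that fell, normal replicate 2 or SOT replicate 2 gave 3, and untreated replicate 3 gave 5.

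Levels per gene length place these changes against the abundance of each gene. In FPKM, GDF10 was the highest ligand in normal folds (41.2 ± 19.7), followed by BMP4 (17.5 ± 1.70) and BMP5 (17.1 ± 6.21), whose values differed by less than their spread. In untreated folds GDF10 and BMP5 were at 0.940 ± 0.485 and 1.63 ± 0.154 FPKM, and BMP4 (10.03 ± 2.75), INHBA (6.89 ± 1.39), BMP2 (5.73 ± 0.624) and INHBB (5.73 ± 1.33) were the highest ligand genes by their means, with BMP7 (5.23 ± 2.12) next. INHBA, BMP2, INHBB and BMP7 were not separated, since their values overlapped between libraries. Summed over the 8 BMP ligand genes the level was 57.8, 66.1 and 67.0 FPKM in normal, 34.6, 21.5 and 26.5 FPKM in untreated and 35.4, 33.9 and 48.8 FPKM in SOT libraries. Summed over the 6 type I receptors it was 51.8, 54.5 and 52.1 FPKM in normal, 69.3, 80.2 and 78.1 FPKM in untreated and 73.9, 82.3 and 63.8 FPKM in SOT libraries. Both sums in the injured groups lay outside the normal range, the ligand sum below it and the receptor sum above it. FSTL1, a secreted glycoprotein, had the highest FPKM of all members in each group (379.6 ± 84.1, 337 ± 31.0 and 342 ± 66.9 in normal, untreated and SOT folds).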

How the data were processed

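Counts and FPKM per gene were deposited by the authors for 9 vocal fold libraries, 3 per group, in a table of 20525 genes. Per the submitters' processing notes, cutadapt 1.9, HISAT2 2.0.4, StringTie 1.3.4d and edgeR were used with the build OryCun2.0, while the role of each tool and any use of strand were not given in the sources used here. Counts as deposited are whole numbers and not normalized, and the deposited FPKM values are scaled by gene length and depth per the file headers.

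Genes with low counts were removed with edgeR 4.0.16 (filterByExpr), libraries were scaled by TMM, and CPM, fold changes and p-values came from the quasi-likelihood test of edgeR with 1 mean per group over all 9 libraries and Benjamini-Hochberg adjustment over 17344 genes. Unless another tool is named, every adjusted p is from that test, and a call is an adjusted p under 0.05. SE is the log2 fold change divided by the root of the F statistic. The steps were tested on simulated data. Total counts were 44755718 to 50338111 per library. No pair of libraries in a group agreed within sampling noise. Alternatives were DESeq2 1.42.0, edgeR with relative log expression factors, no filter, limma 3.58.1 on log2(FPKM + 0.1), fits of the 6 libraries compared, a replicate block, and leaving out each library.

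The members, the lists and the tests were chosen with earlier results of these data known. All members that passed were named, the 2 with the smallest p where no member of a role passed, and up to 4 genes from each companion list, or 1 where none passed. Members named beyond this were chosen after their values were seen. Gene and promoter sequences were not used here, and 1 member is counted but not reported here.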

Additional observations from a re-analysis of the deposited data

How the results depend on the processing

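In untreated against normal folds, the member and companion counts stayed within 1.5 times of those reported under DESeq2, relative log expression factors, no filter, limma, the 6 libraries alone and the replicate block. Leaving out 1 library gave 5 to 8 members higher and 5 to 13 lower, 5 to 13 companion genes higher and 8 to 18 lower, and 1929 to 3263 of all genes higher and 1252 to 2788 lower. In SOT against untreated folds, where 0 genes were higher and 2 lower, DESeq2 called 229 genes higher and 453 lower, with 3 members higher and 2 companion genes lower; limma, the 6 libraries alone and the replicate block each called 0 genes lower. Leaving out 1 library there gave 0 to 74 genes higher and 0 to 382 lower, 0 to 3 members higher and 0 to 1 lower, the highest of each without SOT replicate 1. In SOT against normal folds, DESeq2 called 2461 genes higher and 2348 lower, 14 members lower, and 10 companion genes higher and 14 lower. Limma called 11 members lower and 8 companion genes higher. The 6 libraries alone gave 692 genes higher and 886 lower, 2 members higher, and 3 companion genes higher and 5 lower. Leaving out 1 library gave 587 to 2004 genes higher and 562 to 1259 lower, 1 to 6 members higher and 4 to 8 lower, and 3 to 9 companion genes higher and 3 to 9 lower. The cause of these shifts was not tested.

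Limma on FPKM moved the median log2 fold change of all genes to 0.13 in SOT against untreated and 0.12 in SOT against normal folds, from 0.01 and 0.02. No gene named by the rule given with the processing reversed its direction under these alternatives. Of genes named beyond it, CHRD in SOT against untreated folds had a log2 fold change of 0.03, of -0.16 with limma and of -0.24 with the replicate block, and of -0.98 to 0.40 when leaving out 1 library; the lowest, without SOT replicate 1, was the only one of these that passed. In untreated against normal folds, ACVR2B, FSTL1 and INHA, none of which passed, also changed sign when leaving out 1 library (-0.13 to 0.15, -0.29 to 0.021 and -0.33 to 0.029). FSTL5 in SOT against untreated folds gave no value without untreated replicate 1, since both groups were then at 0.

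The labels number the replicates 1 to 3 in each group. Deviations of same-numbered libraries from their group means correlated between -0.048 and 0.267. In the 3 comparisons in the order above, 5, 3 and 2 of 6 libraries correlated best with their own number. These values do not settle whether the numbers pair the samples, and the main fit did not pair them. In untreated against normal folds the replicate block kept 13 of the 19 member calls. It lost ACVR1B, ACVR2A, BMP3, GDF5, GDF9 and GREM1 and added BMP4. With the replicate block, 6 members were higher and 8 lower in untreated against normal, 0 and 0 in SOT against untreated, and 5 and 8 in SOT against normal folds. Companion genes were 10 higher and 18 lower, 0 and 0, and 3 and 9, and all genes 2893 higher and 2633 lower, 0 and 0, and 1236 and 1389. Precision is limited by 3 libraries per group and, for scarce members such as ACVR1C, GDF5 and FSTL5, by counts.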

Other observations

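The table also holds loci that are named by number and described as members of the family, which the symbol rule does not take. LOC103347033, described as BMP7, had 5.42, 4.07 and 6.07 CPM in normal, 2.78, 1.74 and 2.11 CPM in untreated and 2.98, 2.52 and 5.74 CPM in SOT folds. It fell in untreated against normal folds (adjusted p = 0.0312 for a log2 fold change of -1.23, SE 0.36, edgeR's quasi-likelihood test), whereas the entry named BMP7, which spans 538 bases, had an adjusted p of 0.0990. The LOC103347033 call was lost without normal replicates 1 or 3 or untreated replicates 2 or 3 (highest adjusted p = 0.106, without untreated replicate 2). Both entries were lower in the mean of untreated than of normal folds. LOC100341360 (described as BMP8B), LOC103350213 (BMP8A) and LOC108175367 (BMP2) did not pass in any of the 3 comparisons (adjusted p = 0.802, 0.429 and 0.755 in untreated against normal folds). BMPR2 shares 1658 bases with LOC103348857 on the opposite strand, which had a mean count of 0.444 per library. The ratio of BMP4 to BMP2 in FPKM was 3.36, 2.25 and 2.64 in normal and 2.05, 1.53 and 1.62 in untreated folds, without overlap (p = 0.1 by a two-sided exact permutation test, the smallest possible), and 1.68, 1.25 and 2.54 in SOT folds.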
